A study of Mus musculus with 9 samples.

Results

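The *Dppa* genes, named for developmental pluripotency-associated, are a set of genes first grouped by their expression in pluripotent cells rather than by shared sequence. The 4 members described here, *Dppa2*, *Dppa3*, *Dppa4* and *Dppa5a*, were chosen by name and were 4 of the 55471 Ensembl gene IDs in the table. They were followed in 9 RNA-seq libraries of mouse embryoid bodies (EBs), which are clusters of embryonic stem cells (ESCs) grown in hanging drops, harvested 3 days after differentiation was started. WT EBs came from ESCs whose age is labelled E14, which the study's methods give as the name of the parental line. KO EBs carried the genotype *Tnfaip2*-/- and came from 1 clone with a CRISPR-induced premature stop in *Tnfaip2*, a gene that TNF induces. KO_PAPC EBs were of that same *Tnfaip2*-/- genotype and were grown with 2 lipids at 8 μM each, PA (palmitic acid) and its carnitine ester PC (palmitoyl-L-carnitine). The methods give fibroblast medium with both lipids for the 3 days in which these EBs formed and the 3 days after. For the forming of untreated EBs they give ES cell medium, listed elsewhere with leukemia inhibitory factor. As written, the lipids and that difference in medium cannot be told apart. Each group had 3 libraries. No WT group with PA/PC was analysed here, so treatment and genotype could not be crossed, and a property of the clone and the loss of *Tnfaip2* cannot be told apart.

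DPPA2 and DPPA4 are SAP-domain proteins that bind chromatin as a heterodimer, keep developmental promoters poised in ESCs, and are needed there for the rare 2-cell-like state in which *Dux* and the *Zscan4* genes are transcribed. DPPA3 (Stella, PGC7) is a germ line and oocyte protein that binds UHRF1 and limits maintenance DNA methylation. DPPA5A (ESG1) is a small KH-domain RNA-binding protein that is abundant in undifferentiated ESCs.

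The genes lay at 3 places of GRCm38, and all were annotated as protein coding. *Dppa4* (ENSMUSG00000058550) spanned chr16:48283733-48294237 on the plus strand, and *Dppa2* (ENSMUSG00000072419) followed it at chr16:48303908-48319723 on the same strand, 9671 bases on. *Dppa3* (ENSMUSG00000046323) lay at chr6:122626410-122630272 on the plus strand. *Dppa5a* (ENSMUSG00000060461) lay at chr9:78367052-78368177 on the minus strand. No exon of the 4 genes overlapped an exon of another annotated gene.

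All 4 genes have near-identical copies elsewhere in the genome, mostly processed pseudogenes, and reads that fit several places were not counted. Of all 51-base words in their transcripts (the read length), 15.8% were shared with another gene for *Dppa3*, 28.9% for *Dppa2*, 30.7% for *Dppa4* and 37.8% for *Dppa5a*. The coding stretches below are examples of places where reads of *Dppa2* and *Dppa4* could be told from a copy. The copy of each is that which took the most counts, *Gm9788* (chr19:41459813-41460718, plus strand) and *Gm14058* (chr2:122214620-122215354, minus strand). Each stretch is 102 bases long, read from the GENCODE M21 transcripts 5′ to 3′, and capitals mark the bases at which gene and copy differ. Each was chosen as an early coding stretch that holds a differing base, and stretches identical to the copy were passed over. The counts of words below therefore hold for these stretches and not for the whole genes.
Dppa2: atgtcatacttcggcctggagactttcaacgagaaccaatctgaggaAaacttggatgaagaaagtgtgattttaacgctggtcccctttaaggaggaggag
Gm9788: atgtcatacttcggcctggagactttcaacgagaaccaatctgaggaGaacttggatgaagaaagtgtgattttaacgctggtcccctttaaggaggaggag
Dppa4: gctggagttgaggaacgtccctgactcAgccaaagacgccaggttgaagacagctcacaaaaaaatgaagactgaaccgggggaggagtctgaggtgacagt
Gm14058: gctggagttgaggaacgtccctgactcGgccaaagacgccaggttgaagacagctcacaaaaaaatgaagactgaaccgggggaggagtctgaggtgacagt
In each pair 1 base differed, so that 48 of the 52 possible 51-base words told *Dppa2* from *Gm9788*, and 28 of 52 told *Dppa4* from *Gm14058*. For *Dppa3*, the study's supplementary primer list gives a qRT-PCR pair, shown because it marks which part of the transcript an assay of this gene reads.
Dppa3 forward primer: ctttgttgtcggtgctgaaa
Dppa3 reverse primer: tcccgttcaaactcatttcc
On the *Dppa3* transcript, whose coding sequence runs from base 114 to 563, the forward primer matched bases 382 to 401 and the reverse primer the complement of bases 462 to 481, a product of 100 bases inside the coding sequence. The pseudogene *Dppa3-ps* held the forward site but not the reverse site.

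Library totals were close, between 27362913 and 28914312 counts. *Tnfaip2* itself had 6 to 16 counts in WT, 5 to 8 in KO and 14 to 25 in KO_PAPC libraries, and since a premature stop need not change the read count, these values check nothing about the labels. The ESC label was matched by the pluripotency genes, none of which was at 0, with *Pou5f1* at 684 ± 14.3 CPM in WT (SD, n = 3), where CPM are counts divided by the total of the library and scaled up by a constant. Scaling mattered for KO_PAPC: edgeR's TMM factors were 1.035 to 1.05 in WT and KO but 0.9158 to 0.9233 in KO_PAPC, and with plain library totals the median over all tested genes shifted by -0.17 (log2) in both comparisons with KO_PAPC. Mitochondrially encoded transcripts took 1.85 to 1.87% of counts in WT, 1.96 to 1.98% in KO and 1.26 to 1.34% in KO_PAPC, and the part of this in the results was not tested. CPM values below are scaled by library totals, and log2 fold changes come from the TMM-scaled edgeR fits.

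All 4 *Dppa* genes were higher in KO than in WT EBs, and all 4 were lower in KO_PAPC than in KO EBs. Against WT, KO_PAPC EBs had less *Dppa3*, slightly less *Dppa2* and *Dppa4*, and about as much *Dppa5a*. *Dppa3* had the largest fold change of the 4 in each comparison. *Dppa4* had the smallest between KO and WT, and between KO_PAPC and KO it lay within the standard errors of *Dppa5a*. Such differences between the genes were not tested, apart from that between *Dppa2* and *Dppa4*. Fewer cells that transcribe a gene and less of its RNA per cell cannot be told apart in these bulk libraries.

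*Dppa2* was counted 1474, 1340 and 1414 times in the WT libraries, 3331, 3442 and 3560 times in KO, and 1176, 996 and 1087 times in KO_PAPC. The 3 groups did not overlap, with KO far above the others and KO_PAPC just below WT. The mean CPM was 50.5 ± 2.03 (WT), 121 ± 3.68 (KO) and 39.2 ± 2.97 (KO_PAPC), given as SD with n = 3. *Dppa2* was thus 2.4-fold higher in KO than in WT (log2 fold change 1.26, SE 0.0345, edgeR adjusted p = 3.94e-26). With PA/PC it was 2.74-fold lower than in KO (log2 -1.46, SE 0.0405, adjusted p = 7.14e-28), and 1.15-fold lower than in WT (log2 -0.20, SE 0.0493, adjusted p = 0.000968), or log2 -0.36 with library totals.

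*Dppa4*, the neighbour and partner of *Dppa2*, had 2052, 2114 and 1952 counts in WT, 2863, 2636 and 2655 in KO, and 1586, 1598 and 1634 in KO_PAPC. These values kept the same order of groups without overlap, over a narrower range than those of *Dppa2*. The mean CPM was 73.0 ± 2.7 (WT), 95.4 ± 4.35 (KO) and 58.0 ± 0.835 (KO_PAPC). The fold was 1.31 between KO and WT (log2 0.39, SE 0.0354, edgeR adjusted p = 9.58e-12). *Dppa4* was 1.46-fold lower in KO_PAPC than in KO (log2 -0.55, SE 0.0366, adjusted p = 3.13e-16) and 1.12-fold lower than in WT (log2 -0.17, SE 0.0382, adjusted p = 0.000426), or log2 -0.33 with library totals.

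*Dppa3*, the UHRF1-binding germ line factor, had 329, 312 and 334 counts in WT, 1035, 1085 and 1009 in KO, and 109, 94 and 98 in KO_PAPC. Every KO library lay far above all WT libraries, and every KO_PAPC library lay below all WT libraries. The mean CPM was 11.6 ± 0.442 (WT), 36.6 ± 1.94 (KO) and 3.63 ± 0.262 (KO_PAPC). *Dppa3* was 3.15-fold higher in KO than in WT (log2 1.65, SE 0.0564, edgeR adjusted p = 2.27e-23). It was 8.99-fold lower in KO_PAPC than in KO (log2 -3.17, SE 0.075, adjusted p = 4.64e-30) and 2.86-fold lower than in WT (log2 -1.52, SE 0.0911, adjusted p = 1.71e-13).

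*Dppa5a*, the RNA-binding member, was by far the most counted, with 18810, 17752 and 17502 counts in WT, 32268, 31375 and 33162 in KO, and 17982, 18603 and 18896 in KO_PAPC. The KO libraries stood apart, while the WT and KO_PAPC libraries overlapped. The mean CPM was 645 ± 16.1 (WT), 1132 ± 13.7 (KO) and 668 ± 18.3 (KO_PAPC). *Dppa5a* was 1.76-fold higher in KO than in WT (log2 0.81, SE 0.0207, edgeR adjusted p = 5.06e-27) and 1.51-fold lower in KO_PAPC than in KO (log2 -0.59, SE 0.0238, adjusted p = 6.47e-23). Between KO_PAPC and WT it was called 1.16-fold higher with TMM scaling (log2 0.22, SE 0.0277, adjusted p = 1.88e-07), a call that was lost with library totals (log2 0.051, adjusted p = 0.0978).

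**Figure D1:**
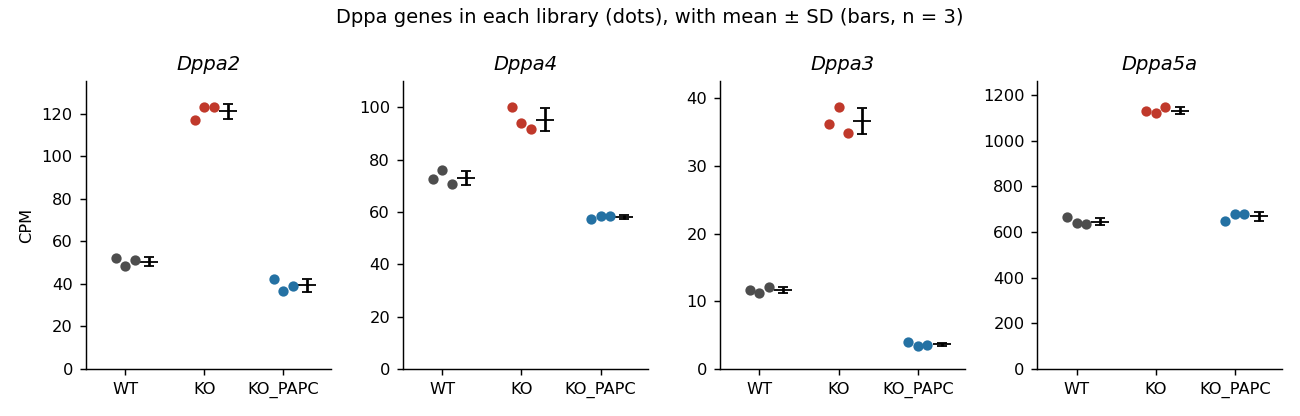
CPM values of *Dppa2*, *Dppa4*, *Dppa3* and *Dppa5a* in each of the 9 libraries (dots) with the mean ± SD of each group (bars, n = 3), on axes that start at 0 and differ between genes. KO libraries are highest in all 4 panels, and KO_PAPC libraries are lowest in all but *Dppa5a*, where they overlap WT.

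These calls have to be read against how much of the transcriptome moved. Between KO and WT, 73.8% of the 17355 tested genes were called, 36.8% as higher and 37.1% as lower, and 75.2% had groups that did not overlap in CPM. Of the 4 members, 4 were called higher and 4 did not overlap. Of the 17167 genes tested between KO_PAPC and KO, 81.8% were called, 39.6% higher and 42.2% lower, and 82.1% did not overlap. All 4 members were called lower there and did not overlap. Of the 16655 tested between KO_PAPC and WT, 70.6% were called, 34.2% higher and 36.4% lower, and 73% did not overlap, against 1 member called higher, 3 called lower and 3 without overlap. A call by itself therefore sets no member apart. In KO versus WT, the share of tested genes that rose further was 4.04% for *Dppa3*, 6.26% for *Dppa2*, 11.3% for *Dppa5a* and 23.1% for *Dppa4*. In KO_PAPC versus KO, 4.47% of tested genes had a lower log2 fold change than *Dppa3*, 12.9% than *Dppa2*, 26.3% than *Dppa5a* and 27.6% than *Dppa4*. The 2 comparisons share the KO libraries, so high KO values alone would give opposite signs in them, and the third shares libraries with each of the others.

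**Figure D2:**
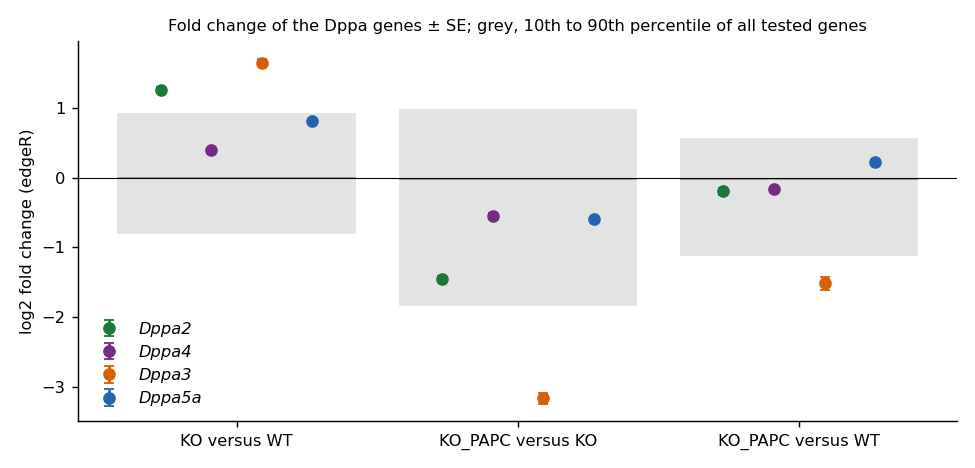
edgeR log2 fold changes ± SE of the 4 genes in the 3 comparisons (6 libraries each), over a grey band from the 10th to the 90th percentile of all tested genes (from -0.80 to 0.91, from -1.83 to 0.97, and from -1.11 to 0.55). *Dppa3* lies outside the band in all 3 comparisons and *Dppa2* in KO versus WT, while *Dppa4* and *Dppa5a* lie inside it throughout.

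To compare levels between genes of different length, counts were divided by the length of the exon union and scaled to a fixed sum per library (TPM). In WT EBs the TPM levels were 3675 ± 101 for *Dppa5a*, 155 ± 5.61 for *Dppa4*, 72.7 ± 3.06 for *Dppa2* and 46.0 ± 1.75 for *Dppa3* (SD, n = 3). In KO EBs they were 6482 ± 94.0, 203 ± 8.54, 175 ± 5.92 and 145 ± 7.61 TPM in the same order, and in KO_PAPC EBs 3781 ± 87.3, 122 ± 1.36, 56.2 ± 4.55 and 14.2 ± 1.1 TPM. The order of the levels was the same in the 3 groups, and no neighbours in it overlapped between libraries of a group. The nearest ranges were those of *Dppa2* and *Dppa3* in KO, at 168 to 179 and 139 to 154 TPM. The next nearest were those of *Dppa4* and *Dppa2* in KO, with *Dppa4* at 196 to 213 TPM. *Dppa5a* ranked 15 among all genes by TPM in WT, 9 in KO and 15 in KO_PAPC, whereas *Dppa3* ranked 4577, 1398 and 8050. Together the 4 genes took 0.0768 to 0.08% of all counts in WT, 0.138 to 0.14% in KO and 0.0751 to 0.0779% in KO_PAPC, and *Dppa5a* supplied 81.4 to 87.4% of that sum. Since reads of shared words were lost, these levels are too low by an amount that differs between the genes, and folds of a gene between groups do not depend on its length.

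*Dppa2* and *Dppa4* encode partners that act as a pair, so their balance was taken in each library as the log2 ratio of *Dppa4* to *Dppa2* counts, which needs no scaling between libraries. It was 0.48, 0.66 and 0.47 in WT, -0.22, -0.38 and -0.42 in KO, and 0.43, 0.68 and 0.59 in KO_PAPC. *Dppa4* was thus counted more than *Dppa2* in every WT and KO_PAPC library and less in every KO library. The sign depends on length, as the exon union was 2447 bases for *Dppa2* and 1662 for *Dppa4*. Per length, *Dppa4* was above *Dppa2* in every KO library too, at 196 to 213 against 168 to 179 TPM. The mean log2 ratio was 0.53 ± 0.108 (WT), -0.34 ± 0.109 (KO) and 0.57 ± 0.127 (KO_PAPC), as SD with n = 3. The difference was -0.88 between KO and WT and 0.91 between KO_PAPC and KO, each with a two-sided exact permutation p = 0.1 (0.15 adjusted over the 3 pairs), which is the smallest that 3 against 3 libraries allow. Between KO_PAPC and WT the difference was 0.034 (exact permutation p = 0.9, 0.9 adjusted), smaller than the spread between libraries.

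**Figure D3:**
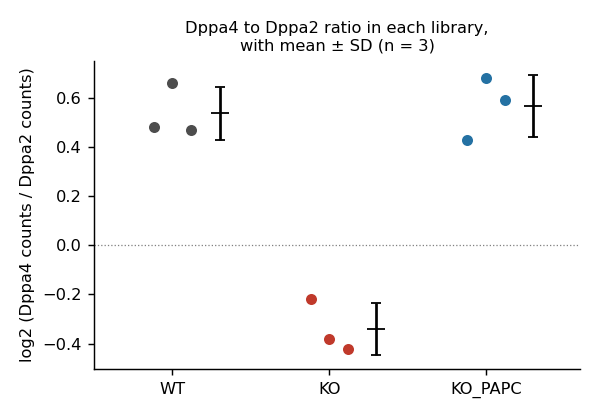
Log2 ratio of *Dppa4* to *Dppa2* counts in each library (dots) with the mean ± SD of each group (bars, n = 3), and a dotted line where both counts would be equal. The KO libraries lie below the line, between -0.42 and -0.22, and all others above it, between 0.43 and 0.68. The line is one of equal counts and not of equal levels per length, by which *Dppa4* was higher in every library.

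Genes linked to DPPA2 and DPPA4 in ESCs were a list of 12: the 2-cell-stage genes *Duxf3* (*Dux*), *Zscan4c*, *Zscan4d*, *Zscan4f*, *Tcstv1*, *Tcstv3* and *Zfp352*, the germ line genes *Mael*, *Syce1* and *Sohlh2*, and the heart regulators *Hand1* and *Nkx2-5*. A gene that passes the filter on low counts only through the group where it is high has to differ, so the list is counted over the genes that reached the filter in every library of both groups. Between KO and WT there were 8 such genes, and 8 were called higher, beside 36.8% of all tested genes. Their median log2 fold change was 3.12, beside -0.0059 over all tested genes, which include genes that reached the filter in 1 group. The 8 include the near-identical *Zscan4c*, *Zscan4d* and *Zscan4f*. *Duxf3*, *Tcstv1* and *Zfp352* were tested through KO alone. Only *Mael*, *Syce1* and *Sohlh2* reached the filter in KO_PAPC. These 3 were called lower than in KO (median -1.34) and than in WT (median -1.0), beside -0.017 over all tested genes in each. Of all tested genes, 42.2% were called lower than in KO and 36.4% lower than in WT. The other genes of the list are given by their values.

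*Zscan4d*, a marker of the 2-cell-like state, had 63, 54 and 60 counts in WT, 1049, 1105 and 1158 in KO, and 6, 4 and 1 in KO_PAPC. It was 2.11 ± 0.15 CPM in WT and 38.7 ± 1.77 CPM in KO (log2 4.19, SE 0.079, edgeR adjusted p = 8.83e-31). Its near-identical relatives behaved alike, with *Zscan4c* at 33 to 34 counts in WT, 512 to 553 in KO and 0 to 3 in KO_PAPC, and *Zscan4f* at 14 to 17, 277 to 312 and 0 to 2. How reads were divided among these paralogs is uncertain. *Duxf3*, which encodes the transcription factor that switches the 2-cell genes on, had 3, 0 and 0 counts in WT, 39, 23 and 34 in KO, and 0, 1 and 0 in KO_PAPC, and it is named here for those low counts. Chosen likewise for a group at 0, *Zfp352* was at 0 in all KO_PAPC libraries, at least 30.1-fold lower than its 81 to 112 counts in KO, and *Tcstv1*, with 27 to 31 counts in KO, was at least 9.6-fold lower, both taken against a floor of 3 counts per library.

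The germ line genes of the list started from higher levels and changed less. *Sohlh2*, a transcription factor of early germ cell differentiation, was at 63.0 ± 1.02 (WT), 104 ± 2.28 (KO) and 15.5 ± 1.05 CPM (KO_PAPC). The log2 fold change of KO over WT was 0.72, and that of KO_PAPC over KO -2.58 (edgeR adjusted p = 4.05e-20 and 4.37e-34). *Syce1*, a component of the synaptonemal complex, was at 22.7 ± 2.1, 28.8 ± 0.589 and 10.1 ± 0.583 CPM. *Nkx2-5* was not tested, as the gene without enough counts, at 0.193 to 0.346 CPM on average in the 3 groups.

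**Figure D4:**
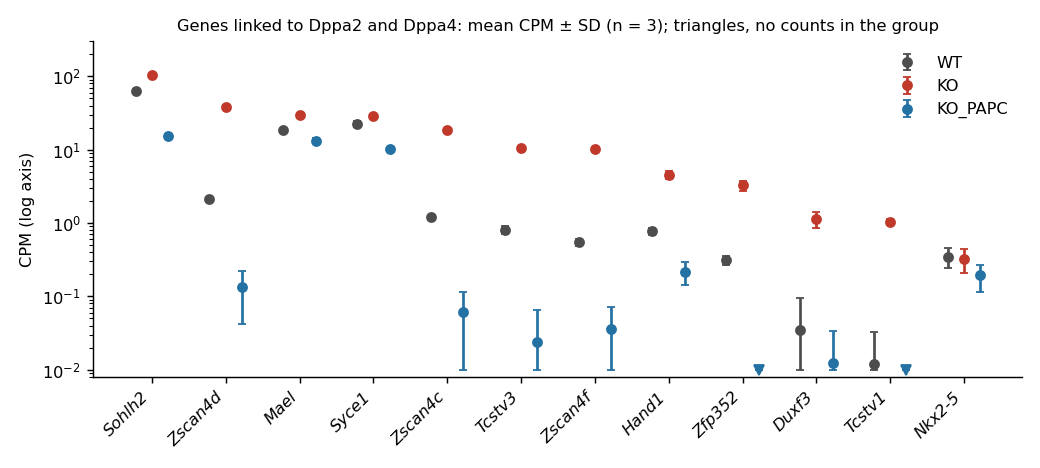
Mean CPM ± SD (n = 3, log axis) of the 12 genes linked to *Dppa2* and *Dppa4*, ordered by their KO level, with triangles for groups without a count and lower bars ended at the axis floor. KO is highest for every gene but *Nkx2-5*, and *Zscan4d* falls from 38.7 CPM in KO to 0.133 CPM in KO_PAPC.

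The genes around DPPA3 in DNA methylation did not move as a block. KO versus WT had 5 of 11 called higher and 5 lower (median log2 -0.012). For KO_PAPC the split was 5 to 4 against KO (median -0.0017) and 7 to 3 against WT (median 0.22). With library totals these became 5 and 5, 5 and 6, and 5 and 3. *Uhrf1*, the protein that DPPA3 binds, was at 326 ± 2.66 CPM (WT), 258 ± 3.64 (KO) and 461 ± 5.85 (KO_PAPC), the opposite order to *Dppa3*. Its log2 fold change was -0.34 from WT to KO and 1.0 from KO to KO_PAPC (edgeR adjusted p = 6.04e-15 and 3.31e-29). The de novo methyltransferases kept the same order of groups as *Uhrf1*. *Dnmt3b* was at 218 ± 3.29, 150 ± 1.38 and 619 ± 10.1 CPM in WT, KO and KO_PAPC, and *Dnmt3a* at 334 ± 3.0, 209 ± 2.49 and 580 ± 5.44 CPM. *Tet2*, which oxidises 5-methylcytosine, had its highest level in KO, at 144 ± 0.883 CPM against 87.1 ± 0.791 in WT and 83 ± 1.75 in KO_PAPC. Its relative *Tet3* had instead its lowest level in KO, at 26.6 ± 0.92 CPM against 39.7 ± 0.864 in WT and 37.8 ± 1.32 in KO_PAPC. The genes not called were *Xpo1* in KO versus WT (log2 -0.012, edgeR adjusted p = 0.683), *Dnmt1* and *Usp7* in KO_PAPC versus KO (log2 -0.006 and -0.0017, adjusted p = 0.842 and 0.951), and *Tet3* in KO_PAPC versus WT (log2 0.092, adjusted p = 0.0669).

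Of 5 KH-domain relatives of *Dppa5a*, only *Ooep* and *Khdc3* had enough counts to be tested. *Ooep*, an oocyte gene 7932 bases beyond *Dppa5a* on chromosome 9, was at 26.6 ± 0.554 CPM (WT), 48.7 ± 2.05 (KO) and 37.8 ± 1.81 (KO_PAPC). From WT to KO its log2 fold change was 0.88, beside 0.81 for *Dppa5a*, and from KO to KO_PAPC it was -0.20, beside -0.59 (edgeR adjusted p = 1.32e-18 and 0.000108 for *Ooep*). *Khdc3* was at 2.67 ± 0.416, 2.45 ± 0.332 and 0.324 ± 0.163 CPM, with no call in KO versus WT (log2 -0.13, adjusted p = 0.44). *Khdc1a*, *Khdc1b* and *Khdc1c* had at most 3 counts in any library.

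The wider pluripotency network was divided. Of its 24 genes, KO versus WT called 16 higher and 7 lower (median log2 0.64). For KO_PAPC the split was 9 higher to 15 lower against KO (median -0.79) and 10 to 12 against WT (median -0.14). With library totals these 2 became 8 and 16 (median -0.96), and 8 and 15 (median -0.30). Some genes of this list had the order of groups seen for *Dppa2* and *Dppa3*, and others did not. *Nanog* was at 385 ± 6.42, 778 ± 12 and 287 ± 6.96 CPM in WT, KO and KO_PAPC, *Tfcp2l1* at 103 ± 1.02, 242 ± 3.99 and 34.2 ± 0.584, and *Tbx3* at 115 ± 2.03, 216 ± 0.726 and 28.9 ± 0.128. *Klf5*, named for going against them in KO versus WT alone, was at 190 ± 1.92, 163 ± 2.17 and 113 ± 4.83 CPM. It was called lower in KO than in WT (log2 -0.22, edgeR adjusted p = 1.8e-09). *Lin28a*, named for going against them in KO_PAPC versus KO as well, was at 330 ± 4.39, 164 ± 2.92 and 565 ± 4.9 CPM (log2 -1.01 and 1.95 in the 2 comparisons). *Tex19.1*, a gene of pluripotent and germ cells, was at 102 ± 2.69, 238 ± 4.95 and 17.3 ± 0.554 CPM. *Klf2* shared the KO maximum but not the low KO_PAPC level, at 221 ± 16.2, 629 ± 14.2 and 231 ± 10.9 CPM. *Fbxo15*, *Zfp42*, *Klf4* and *Sox2*, which the study names, were highest in KO too, at 215 ± 1.29, 508 ± 5.37, 87.7 ± 0.645 and 758 ± 5.31 CPM, against 96.3 ± 0.657, 252 ± 1.16, 54.8 ± 1.75 and 514 ± 3.57 CPM in WT. The core factor *Pou5f1* was not called between KO and WT (log2 0.025, edgeR adjusted p = 0.304) and was highest in KO_PAPC, at 843 ± 23.3 CPM.

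Germ cell genes, given because *Dppa3* marks primordial germ cells, were mixed as well. Of 10 tested, KO versus WT called 6 higher and 4 lower (median log2 0.26). For KO_PAPC the split was 2 higher to 8 lower against KO (median -0.92) and 0 to 8 against WT (median -0.61). With DESeq2 the 3 splits became 5 and 2, 1 and 8, and 0 and 7. *Tfap2c*, a transcription factor of germ cell specification that naive ESCs also express, was at 53.9 ± 0.666 CPM (WT), 294 ± 3.43 (KO) and 27.4 ± 0.858 (KO_PAPC) (log2 2.45 in KO versus WT, edgeR adjusted p = 1.85e-36). *Prdm1* was at 16.8 ± 0.938, 29 ± 0.711 and 5.2 ± 0.386 CPM and *Nanos3* at 2.33 ± 0.305, 12.3 ± 1.11 and 2.3 ± 0.127 CPM. *Kit*, a receptor of germ cells and other lineages, was at 106 ± 1.92, 148 ± 1.97 and 71.9 ± 1.19 CPM. *Dazl* and *Ddx4*, which encode RNA-binding proteins of later germ cells, were called lower in KO than in WT. The difference was small for *Dazl* (log2 -0.15, edgeR adjusted p = 0.00287) and larger for *Ddx4* (log2 -1.13, adjusted p = 1.24e-19). *Dazl* was at 76.1 ± 4.33, 68.7 ± 5.73 and 5.94 ± 0.136 CPM, and *Ddx4* at 35.5 ± 1.5, 16.2 ± 0.742 and 29 ± 2.21 CPM.

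Markers of other cell types moved between the groups too. Genes of formative and primed epiblast summed to 817 to 823 CPM in WT, 549 to 564 in KO and 1231 to 1269 in KO_PAPC. Of 9, 1 was called higher and 7 lower in KO versus WT, and 8 were higher and 1 lower in both comparisons of KO_PAPC (medians -0.38, 1.47 and 0.93), with *Lef1*, a Wnt effector, at 24.9 ± 0.205, 24.8 ± 0.339 and 96.5 ± 1.29 CPM, and the transcription factor *Sall2* at 150 ± 1.55, 37.4 ± 1.37 and 221 ± 3.38 CPM. Extraembryonic endoderm genes summed to 961 to 995 CPM in WT, 558 to 562 in KO and 137 to 140 in KO_PAPC. Of 10, 2 were higher and 8 lower in KO versus WT and 10 were lower in both comparisons of KO_PAPC (medians -0.80, -2.49 and -3.28), with the matrix gene *Sparc* at 714 ± 14.0, 386 ± 2.25 and 113 ± 1.61 CPM, and the lineage regulator *Gata6* at 30.0 ± 1.01, 12.2 ± 0.776 and 2.0 ± 0.29 CPM. Fibroblast genes, a check for feeder cells, summed to 15.9 to 16.3 CPM in WT, 21.9 to 24.2 in KO and 16.6 to 19.2 in KO_PAPC. Of 8, between 4 and 5 could be tested, with 2 higher and 2 lower between KO and WT, 2 higher and 1 lower between KO_PAPC and KO, and 4 higher between KO_PAPC and WT (medians 0.16, 0.27 and 0.34). The last became 2 higher and 1 lower with library totals, and *Col3a1* reached the filter in KO_PAPC alone. No gene of these 3 lists was at 0 throughout, and the part of changed cell makeup in the *Dppa* values was not tested.

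On the chromosomes, 91 annotated genes of the table lay within 500 kb of a member, 26 of them without a count in any library. Of those tested, KO versus WT called 12 of 33 higher and 11 lower (median log2 -0.029). For KO_PAPC the split was 9 to 14 of 31 against KO (median -0.15) and 11 to 13 of 31 against WT (median -0.053). With library totals the last 2 pairs became 6 and 19, and 7 and 15. Over the neighbours that reached the filter in both groups, the 3 splits were 11 to 10 of 28, 9 to 11 of 28 and 11 to 10 of 26. Around *Dppa2* and *Dppa4* the only tested gene was *Morc1*, a germ line gene involved in transposon silencing, 111514 bases beyond *Dppa2*. It was at 38.0 CPM (WT), 81.7 (KO) and 15.5 (KO_PAPC) on average, with log2 fold changes of 1.1, -2.23 and -1.13 (edgeR adjusted p = 6.02e-24, 7.09e-32 and 1.57e-15). *Gdf3*, a TGF-β family ligand 16323 bases before *Dppa3*, had instead its lowest level in KO, at 72.2 ± 1.2, 66.2 ± 1.28 and 88.8 ± 3.57 CPM. *Nanog*, 77217 bases on the other side, had the order of groups of *Dppa3*. *Apobec1*, the next gene beyond *Gdf3*, averaged 9.38 (WT), 6.34 (KO) and 4.51 CPM (KO_PAPC) and was called lower in all 3 comparisons. *Gm10224*, a processed pseudogene between *Dppa3* and *Nanog*, was not called in any comparison (log2 0.14, 0.21 and 0.34, SE 0.342, 0.333 and 0.343). It averaged 0.381, 0.421 and 0.434 CPM in WT, KO and KO_PAPC, with at most 15 counts, too few to show that it was unchanged. On the other side of *Dppa5a* from *Ooep*, *Gsta4* was at 340, 417 and 363 CPM and *C920006O11Rik* at 4.9, 3.06 and 3.64 CPM, and beyond *Ooep* the RNA helicase gene *Ddx43* was at 18.5, 19.9 and 18.4 CPM.

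**Figure D5:**
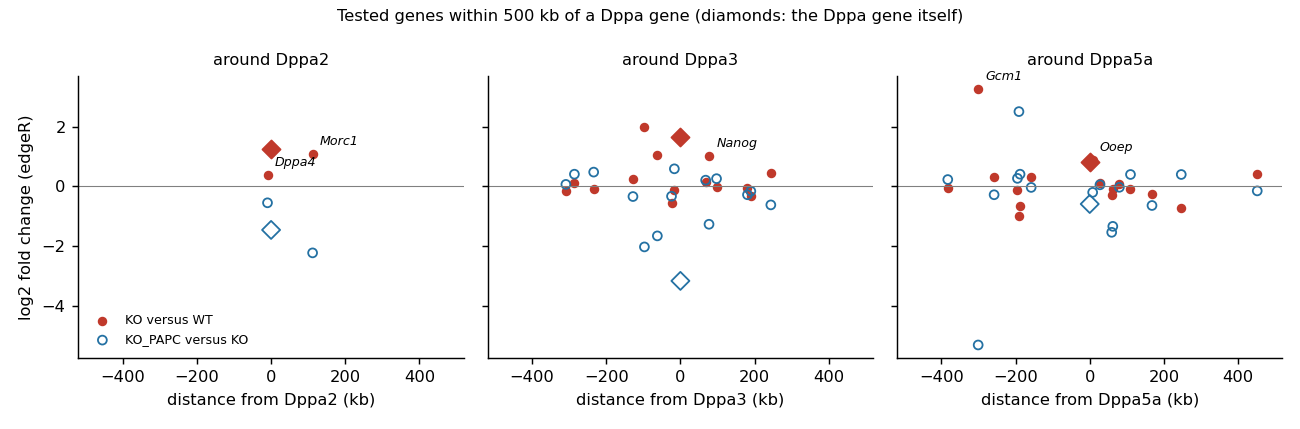
edgeR log2 fold changes of the tested genes within 500 kb of *Dppa2*, *Dppa3* and *Dppa5a* against their distance in kb (negative at lower coordinates), filled for KO versus WT and open for KO_PAPC versus KO, with the *Dppa* gene itself as a diamond at 0. The neighbours scatter on both sides of 0, and *Morc1* at 1.1 and -2.23 has the signs of *Dppa2*. The points furthest from 0 near *Dppa5a* belong to the placental regulator *Gcm1* (3.28 and -5.32), which was labelled after its values were seen. In KO_PAPC versus KO *Gcm1* reached the filter through KO alone, at 0.108 ± 0.0355 CPM in KO_PAPC, so -5.32 rests on counts near 0.

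The genes with the most similar profiles were searched among 9787 genes with at least 10 CPM on average, by the root-mean-square (RMS) difference of log2 CPM from the WT mean over the 9 libraries. For *Dppa2* they were *Gm17067*, *Srgap3* and *Gas7* (RMS 0.0789, 0.0971 and 0.0995), for *Dppa3* *AU018091*, *Mpp1* and *Mylpf* (0.116, 0.128 and 0.145), for *Dppa4* *Glis2*, *Cnp* and *Dock6* (0.0311, 0.043 and 0.0455), and for *Dppa5a* *Gpx4*, *Gpd1l* and *Foxo4* (0.0367, 0.0407 and 0.0493). *AU018091*, for example, was at 150 ± 2.89 CPM (WT), 414 ± 5.76 (KO) and 54.1 ± 2.33 (KO_PAPC), and *Gpx4*, which reduces lipid peroxides, at 230 ± 3.48, 409 ± 7.16 and 236 ± 8.82 CPM. Between the members themselves, the RMS differences ran from 0.334 for *Dppa4* and *Dppa5a* to 1.04 for *Dppa3* and *Dppa5a*, with 0.511 for the adjacent pair *Dppa2* and *Dppa4*. These are descriptions over the same libraries that gave the fold changes.

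The pseudogene copies took few counts. Summed over its copies they came to 0.204 to 0.841% of the member's counts for *Dppa2*, 0 to 1.06% for *Dppa3*, 5.53 to 7.7% for *Dppa4* and 0.156 to 0.234% for *Dppa5a*, so that moving every such read to its member would change no member by more than that. Reads that fitted both places equally were not in the table. *Gm14058*, whose stretch is printed beside that of *Dppa4*, had 140, 100 and 127 counts in WT, 171, 149 and 149 in KO, and 95, 110 and 97 in KO_PAPC. Its log2 fold change was 0.33 from WT to KO and -0.43 from KO to KO_PAPC (edgeR adjusted p = 0.00929 and 0.000783), close to those of *Dppa4* (0.39 and -0.55). *Gm9788*, the copy of *Dppa2*, had 3, 2 and 4 counts in WT, 25, 14 and 20 in KO, and 4, 4 and 2 in KO_PAPC. It reached the filter on low counts through KO alone, so it is given by its counts without a call. Whether such reads came from the copy or, with an error at the differing base, from the gene was not tested.

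Of the other genes with a *Dppa* name, *Dppa1* and the pseudogene *Dppa5b* were at 0 in all 9 libraries, which allows up to 3 counts in each. *Dppa5c* had 0 to 2 counts and *Dppa3-ps* 0 to 6. All 51-base words of *Dppa5b* and *Dppa5c* occur in another gene as well, so a low count there says nothing of their transcription.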

How the data were processed

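RNA was sequenced from 9 libraries of mouse EBs (WT, KO and KO_PAPC, 3 each), grouped by their titles. The deposited values were raw counts per Ensembl gene, made by the authors from single-end reads of 51 cycles, without strand. The submitters' processing notes name bcl2fastq 2.20.0.422, STAR 2.7.2b, featureCounts 1.6.5 and GRCm38. Multi-mapping and multi-overlapping reads were not counted. The study's methods describe this pipeline for its analysis of KO and KO_PAPC and an earlier one for its analysis of KO and WT, and which of them made the WT counts is not stated, although all columns lay in 1 table. Symbols came from GENCODE M21 (241 IDs unmatched). The number of per-sample columns left unused was 0.

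The 4 members, the gene lists and the tests were chosen with earlier results of these data known. Each comparison was fitted on its 6 libraries with the edgeR 4.0.16 quasi-likelihood test (R 4.3.3, TMM, filterByExpr, Benjamini-Hochberg over all tested genes), and calls were made at an adjusted p under 0.05. In simulated counts for KO versus WT, 98% of 200 changed genes were recovered with 5 false calls over 17259 tested genes. Those 200 changed by at least 2-fold and all others stayed the same. The simulation therefore says nothing of folds under 2, or of data in which most genes move. The *Dppa4* to *Dppa2* ratio was compared by exact permutation. CPM used library totals and TPM exon-union lengths. The profile search added 0.5 CPM before taking logs. Named genes were the members, per list and comparison up to 3 with the smallest adjusted p and those the paper names, the 3 closest profiles, the 2 nearest tested neighbours per side, and all other *Dppa* symbols. Methods call the libraries biological replicates, and the p-values measure the spread between these samples. That spread was small, with a common coefficient of variation beyond counting noise of 2.09 to 2.65% in the 3 comparisons. How far other clones or cultures would vary was not measured. Alternatives were DESeq2 1.42.0, other scalings and filters, a joint fit, a replicate block, thinning, a tested minimum fold of 2, and leaving out each library.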

Additional observations from a re-analysis of the deposited data

How the results depend on the processing

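Over 9 alternatives and 6 leave-one-out fits per comparison, the 12 fold changes of the members kept their direction throughout, with 172 values on the same side of the threshold and 8 that lost the call. With library totals in place of TMM, *Dppa5a* in KO_PAPC versus WT was at log2 0.051 (edgeR adjusted p = 0.0978). The other 7 were lost when a fold of at least 2 was tested: *Dppa4* (0.39) and *Dppa5a* (0.81) in KO versus WT, *Dppa4* (-0.55) and *Dppa5a* (-0.59) in KO_PAPC versus KO, and *Dppa2* (-0.20), *Dppa4* (-0.17) and *Dppa5a* (0.22) in KO_PAPC versus WT. That test also cut the calls over all genes from 12813 to 1587, from 14047 to 3554 and from 11760 to 1335 in the 3 comparisons. DESeq2 called 11414, 13509 and 10465 genes. With library totals, the genes called higher and lower were 5317 and 8684 in KO_PAPC versus KO and 3616 and 8341 in KO_PAPC versus WT. Of the counts of listed genes under the alternatives, 378 stayed within 1.5 times and 27 moved further. Low counts kept *Nkx2-5* and 3 of the 5 KH-domain relatives untested.

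Whether replicate numbers pair the samples differed by comparison, as judged by the correlation of deviations of same-numbered libraries. Between KO and WT it was -0.248, -0.0197 and -0.0919, and PA/PC-treated against untreated KO gave -0.234, -0.00213 and -0.0794. For KO_PAPC and WT it was 0.349, 0.233 and 0.00259, so an absence of pairing is not shown there. A fit with the replicate block called 12587, 13822 and 12223 genes and changed no call of a member. Without the block the calls were 12813, 14047 and 11760, so they rose with it for KO_PAPC and WT alone. The edgeR adjusted p of each member fell there too, that of *Dppa2* from 0.000968 to 6.54e-06.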
